A study of Mus musculus with 6 samples.

Results

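The genes described here were 10 genes of amacrine cell fate and transmitter use, taken by symbol from a table of gene expression in the mouse retina at postnatal day 7: *Gad1* and *Gad2* of GABAergic cells, *Chat*, *Slc18a3* and *Slc5a7* of cholinergic cells, *Th* of dopaminergic cells, and the transcription factor genes *Pax6*, *Tfap2a*, *Tfap2b* and *Ptf1a*. All 10 were among the 21744 genes of the table, and 9 of them averaged 0.1 FPKM or more across the 6 libraries and were thus among the 15200 genes tested. FPKM scales the sequenced fragments of a gene by its transcript length and by library depth, so levels are per length. *Ptf1a* was under this limit and was not tested.

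RNA was sequenced from the retinas of 3 mice labelled control and 3 mice labelled *Lhx4* null, with 1 library per mouse, all on a mixed C57BL/6J and 129S6 background. In the study an *Lhx4* null mouse carried a tdTomato reporter knocked into 1 *Lhx4* allele, a loxP-flanked second allele, and *Six3-Cre*, which drives recombination in the developing retina (*Lhx4* loxP/tdT; *Six3-Cre*). The labels give the controls of the libraries only as control, whereas other experiments of the study used wild type, *Lhx4* loxP/+, *Lhx4* tdT/+ or *Lhx4* loxP/tdT mice as controls, so the alleles that the control libraries carry, and whether any carries the reporter allele, are not given in the sources used here. LHX4 is a LIM-homeodomain factor of bipolar cells, and the study asked how its loss affects the genesis of bipolar and amacrine cells.

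Amacrine cells are the inhibitory interneurons of the inner retina, and they are born before most bipolar cells from progenitors that pass through a brief *Foxn4* and *Ptf1a* phase. Most of them use GABA or glycine, starburst amacrine cells release acetylcholine along with GABA, and a rare type makes dopamine. Several of the 10 genes are not private to amacrine cells: *Pax6* is also expressed in ganglion cells, horizontal cells, Müller glia and progenitors, and *Tfap2a*, *Tfap2b*, *Ptf1a* and *Gad1* also serve horizontal cells.

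The sequence upstream of the start is shown for 4 of the genes, because *Chat* and *Slc18a3* share a locus and *Gad2*, *Slc18a3* and *Pax6* hold a palindrome, GCCNNNGGC, of the kind that AP-2 factors, the products of the *Tfap2* genes, bind. The stretches are those of the 250 bases before the RefSeq start (GRCm38.p6) that overlap no annotated exon, printed 5′ to 3′ on the strand of the gene, with each match in capitals. *Gad2* is shown for chr2:22622077-22622204 (plus strand), *Pax6* for chr2:105668646-105668895 (plus), *Slc18a3* for chr14:32464851-32465041 (minus), and *Chat*, which has no match, for chr14:32465990-32466159 (minus).
Gad2: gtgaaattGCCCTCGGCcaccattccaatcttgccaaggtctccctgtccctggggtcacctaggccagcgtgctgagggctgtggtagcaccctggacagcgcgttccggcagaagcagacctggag
Pax6: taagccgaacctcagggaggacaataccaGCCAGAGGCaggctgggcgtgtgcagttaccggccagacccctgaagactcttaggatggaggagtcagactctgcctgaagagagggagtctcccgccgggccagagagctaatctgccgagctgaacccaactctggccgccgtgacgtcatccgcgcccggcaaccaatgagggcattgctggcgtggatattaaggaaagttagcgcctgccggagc
Slc18a3: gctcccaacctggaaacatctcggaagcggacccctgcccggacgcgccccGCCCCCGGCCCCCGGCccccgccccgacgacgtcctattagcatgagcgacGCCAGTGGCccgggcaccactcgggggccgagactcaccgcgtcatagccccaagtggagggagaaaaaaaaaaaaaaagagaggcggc
Chat: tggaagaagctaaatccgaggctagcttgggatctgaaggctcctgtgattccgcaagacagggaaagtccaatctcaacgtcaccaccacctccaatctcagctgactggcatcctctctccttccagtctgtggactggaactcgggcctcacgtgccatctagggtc

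All 10 genes had a RefSeq window of 250 bases, 2 of them with 2 windows. GCCNNNGGC, which reads the same on both strands, was in windows of 3 of the 10 genes (*Gad2* with 2 matches, *Slc18a3* with 3 of which 2 overlap each other, and *Pax6* with 1) and in 13.7% of 32851 windows of the same length. TAATTA, a core bound by many homeodomain factors and also a palindrome, was in a window of 1 of the 10 genes, *Tfap2a*, and in 4.84% of all windows. The E-box CANNTG, the form of site that PTF1A and other basic helix-loop-helix factors bind, was in windows of 8 of the 10 genes and in 66.2% of all windows. Counted by window, as the shares of all windows are, GCCNNNGGC was in 3 of 12, TAATTA in 1 of 12 and CANNTG in 8 of 12. The second match of *Gad2* and the *Tfap2a* match lie in annotated exons and are not printed. These matches describe the letters of the windows and not sites in use.

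Among the 9 genes tested, 0 passed an adjusted p of 0.05 (limma with Benjamini-Hochberg adjustment over 15200 genes), a call that 0.224% of all genes tested had in either direction. At an unadjusted p under 0.05 in the same limma fit, 4 of the 9 were higher in the libraries labelled *Lhx4* null (*Gad2*, *Pax6*, *Tfap2a* and *Tfap2b*), beside 4.6% of all genes, and 0 were lower, beside 3.55% of all genes. The same 4 genes were higher in every library labelled *Lhx4* null than in every control library, which held for 8.1% of all genes. *Th* was lower in every library labelled *Lhx4* null than in every control library, which held for 6.13% of all genes. The median difference of the 9 genes was 0.20 on the log2(FPKM + 0.1) scale, the scale of all log2 differences given here, with a range from -0.31 to 0.40, while the median of all genes tested was 0.011. In bulk retina a change in the number of cells of a type and a change in RNA per cell cannot be told apart.

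**Figure D1:**
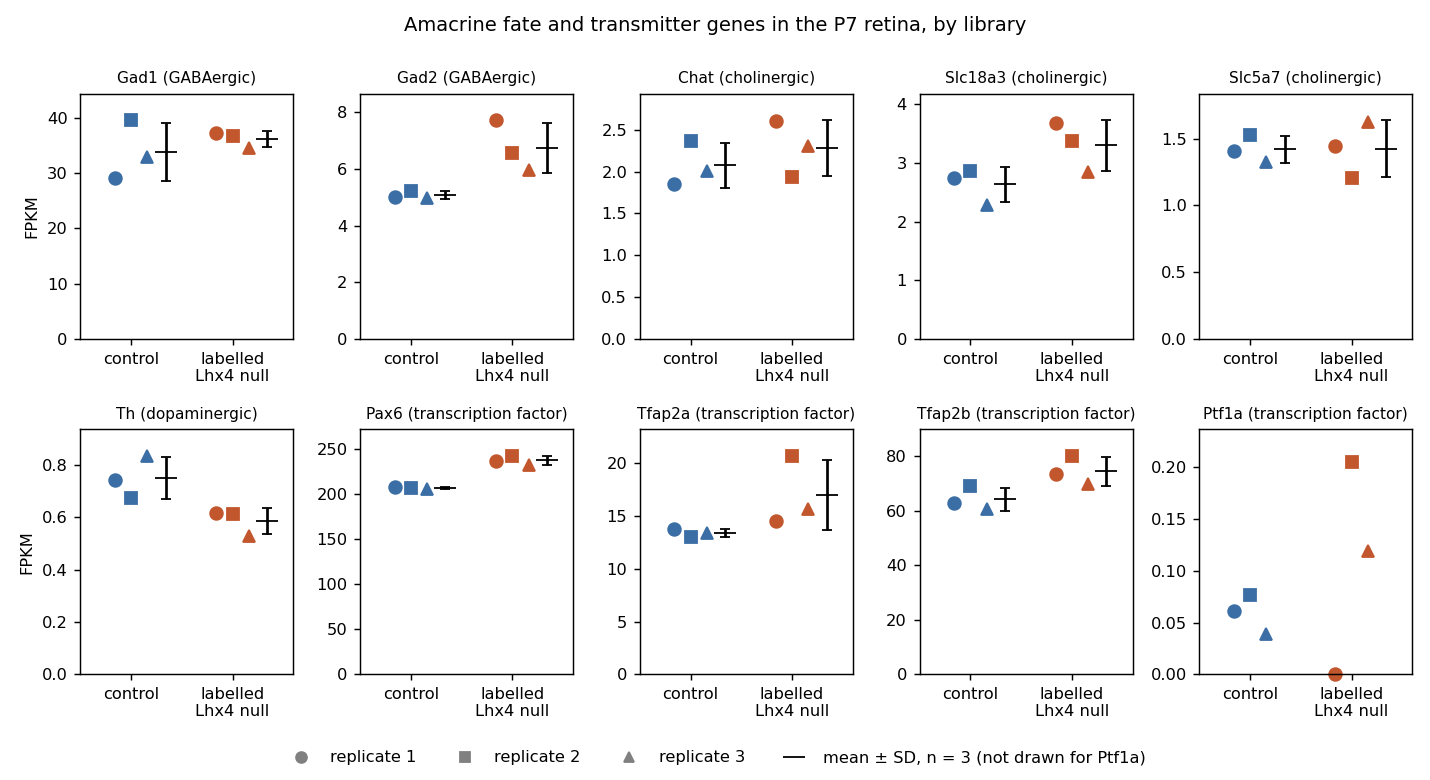
FPKM of the 10 genes in each library (y axes, linear from 0), with the control libraries in blue, the libraries labelled *Lhx4* null in orange, marker shapes for the replicate numbers, and the mean ± SD of each group (n = 3) in black except for *Ptf1a*. The groups stand apart for *Gad2*, *Th*, *Pax6*, *Tfap2a* and *Tfap2b* and overlap for the other 5 genes.

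The check of the targeted gene went against its label. *Lhx4* was at 20.9, 23.8 and 19.1 FPKM in the controls and at 31.2, 30.3 and 29.0 FPKM in those labelled *Lhx4* null, a difference of 0.51 (limma with Benjamini-Hochberg adjustment, adjusted p = 0.0978). A value per gene can hold fragments from exons outside the deleted stretch, so it does not check the deletion, and the mutant libraries are named here by their label. Of 10 bipolar markers 4 were called lower in these libraries (*Bhlhe23*, *Grm6*, *Isl1* and *Scgn*), beside 21 of the 15200 genes tested. Negative differences were held by 8 of the 10. The other 2, *Vsx1* (0.28) and *Otx2* (0.07), had positive differences and were not called. *Bhlhe23*, a helix-loop-helix factor of rod bipolar cells, fell by 3.78 on the log2 scale, and the differences of *Grm6* and *Scgn* were -1.49 and -1.73. Relative depth, recovered from the steps of low FPKM values, was 46.7% to 65.9% of the deepest library in the libraries labelled *Lhx4* null and 76.9% to 100% in the controls, so depth moved with the label, and its part in the results was not tested. On the first principal component, which held 33.8% of the variance, replicate 3 of the libraries labelled *Lhx4* null (-7.23) lay beside the controls (-13.52 to -8.27) and apart from replicates 1 and 2 (17.24 and 22.17). Without that library, 0 of the 9 genes passed the adjusted threshold and 5 were higher at an unadjusted p under 0.05 (limma), *Slc18a3* being the addition, beside 6.45% of all genes in that fit. The number higher at an unadjusted p under 0.05 (limma) was 1 without control replicate 1, beside 2.8% of all genes, 1 without control replicate 3, beside 2.53%, and 2 without replicate 2 of the libraries labelled *Lhx4* null, beside 2.91%.

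*Pax6*, the paired-box factor that progenitors and all amacrine cells use, had the highest level of the 10 genes, and 1.3% of all genes tested had a higher mean FPKM. It was at 208, 207 and 206 FPKM in the controls and at 237, 243 and 233 FPKM in those labelled *Lhx4* null. The control libraries lay within 3 FPKM of each other, and the lowest library of the other group was above all of them. The means were 206.9 ± 1.22 and 237.5 ± 5.06 FPKM (SD, n = 3), a ratio of 1.15, and the log2 difference was 0.20 with a 95% interval from 0.05 to 0.35 and an adjusted p of 0.507 (limma with Benjamini-Hochberg adjustment). With 3 libraries a group, 0.1 is the smallest two-sided p of an exact permutation test, and it was the p for each of the 5 genes whose groups stood apart.

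*Tfap2b* and *Tfap2a* encode AP-2 factors that newly born amacrine and horizontal cells switch on downstream of *Ptf1a*. *Tfap2b* was at 62.9, 68.9 and 60.7 FPKM in the controls and at 73.3, 80.1 and 69.8 FPKM in those labelled *Lhx4* null. The lowest of the latter, replicate 3, exceeded the highest control, replicate 2, by less than 1 FPKM. The log2 difference of *Tfap2b* was 0.21 (95% interval 0.03 to 0.40), with an adjusted p of 0.571 (limma with Benjamini-Hochberg adjustment).

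*Tfap2a* was at 13.7, 13.0 and 13.4 FPKM in the controls and at 14.5, 20.7 and 15.6 FPKM in those labelled *Lhx4* null. Replicate 2 stood above the other two of its group, and it was also the library with the highest *Tfap2b* and *Pax6*. The log2 difference was 0.32 (95% interval 0.03 to 0.61; limma with Benjamini-Hochberg adjustment, adjusted p = 0.593), and it was 0.17 without replicate 2 of the libraries labelled *Lhx4* null. Of the exon bases of *Tfap2a* 14.6% overlap genes on the opposite strand (Gm26688, Gm47061 and Gm47067), and whether counting used strand is not given in the sources used here. *Tfap2b* exceeded *Tfap2a* by 4.53 to 5.28 times in the controls and by 3.87 to 5.05 times in the libraries labelled *Lhx4* null, and these ranges overlap.

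*Ptf1a*, which commits progenitors to amacrine and horizontal fates, was near the limit of detection. It was listed at 0.0614, 0.0767 and 0.0392 FPKM in the controls and at 0, 0.205 and 0.119 FPKM in those labelled *Lhx4* null. Divided by the step of 1 fragment, these values came to 3, 3 and 2 fragments in the controls and 0, 6 and 4 in the other group, each within 0.05 of a whole number. The 8 fragments of the controls and the 10 of the libraries labelled *Lhx4* null gave a depth-adjusted ratio of 2.0, with an exact binomial 95% interval from 0.712 to 5.84 that covers counting error only, so no difference was detectable at this depth. Of the exon bases of *Ptf1a* 40.4% are shared with its opposite-strand neighbour Ptf1aos. *Foxn4*, which acts upstream of *Ptf1a*, was likewise lowest in replicate 1 (0.356 FPKM) and highest in replicate 2 (2.13 FPKM) of the libraries labelled *Lhx4* null, with controls from 0.424 to 1.10 FPKM. The summed FPKM of 6 progenitor and cycling cell markers was, within that group, likewise lowest in replicate 1 (25.4) and highest in replicate 2 (60.3), against 22.7 to 40.5 in the controls, and the part of cycling cells in the *Ptf1a* and *Foxn4* levels was not tested.

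*Gad2* encodes GAD65, the GABA-synthesising enzyme of nerve terminals, and it had the smallest unadjusted p of the 9 genes, with 1.88% of all genes below it. It was at 5.01, 5.23 and 4.98 FPKM in the controls and at 7.71, 6.56 and 5.97 FPKM in those labelled *Lhx4* null. The controls lay close together, and replicate 3, the library beside the controls on the first principal component, was the nearest to them. The means were 5.07 ± 0.140 and 6.74 ± 0.887 FPKM (SD, n = 3), a ratio of 1.33, and the log2 difference was 0.40 (95% interval 0.14 to 0.66), with an unadjusted p of 0.00776 and an adjusted p of 0.410 (limma with Benjamini-Hochberg adjustment).

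*Gad1* encodes GAD67, which makes GABA throughout the cell, and its level was several times that of *Gad2*. It was at 29.1, 39.5 and 32.8 FPKM in the controls and at 37.2, 36.7 and 34.5 FPKM in those labelled *Lhx4* null. All of the latter lay within the range of the controls. The log2 difference was 0.11 (95% interval -0.14 to 0.36), with an adjusted p of 0.818 (limma with Benjamini-Hochberg adjustment). *Gad1* stood at 5.82, 7.55 and 6.59 times *Gad2* in the controls and at 4.82, 5.60 and 5.79 times in the libraries labelled *Lhx4* null. The ratios of the groups did not overlap, but the nearest libraries, control replicate 1 and replicate 3 of the other group, were almost level.

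The list of GABA genes held 9 genes, of which 8 were tested, the 2 *Gad* genes among them. Beside genes of synthesis, packaging and uptake it held *Abat*, of GABA breakdown, and the transcription factor genes *Dlx1* and *Dlx2*. *Dlx1* had the largest difference of the list (0.75), at only 0.0534 to 0.409 FPKM across the libraries. At an adjusted p under 0.05 (limma with Benjamini-Hochberg adjustment) 0 of the 8 were called. At an unadjusted p under 0.05 (limma) 1 was higher, beside 4.6% of all genes. All 8 had a positive difference, which 53.3% of all genes tested had, and the median was 0.17. *Gad2* was the member of this list whose groups did not overlap. *Slc32a1*, the vesicular transporter for GABA and glycine, was at 16.6, 18.1 and 16.1 FPKM in the controls and 19.3, 19.4 and 16.6 FPKM in those labelled *Lhx4* null, a difference of 0.12 with overlapping groups. The 5 glycinergic genes had 0 calls, 0 genes at an unadjusted p under 0.05 (limma) and a median of 0.12, with overlap between the groups for each.

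**Figure D2:**
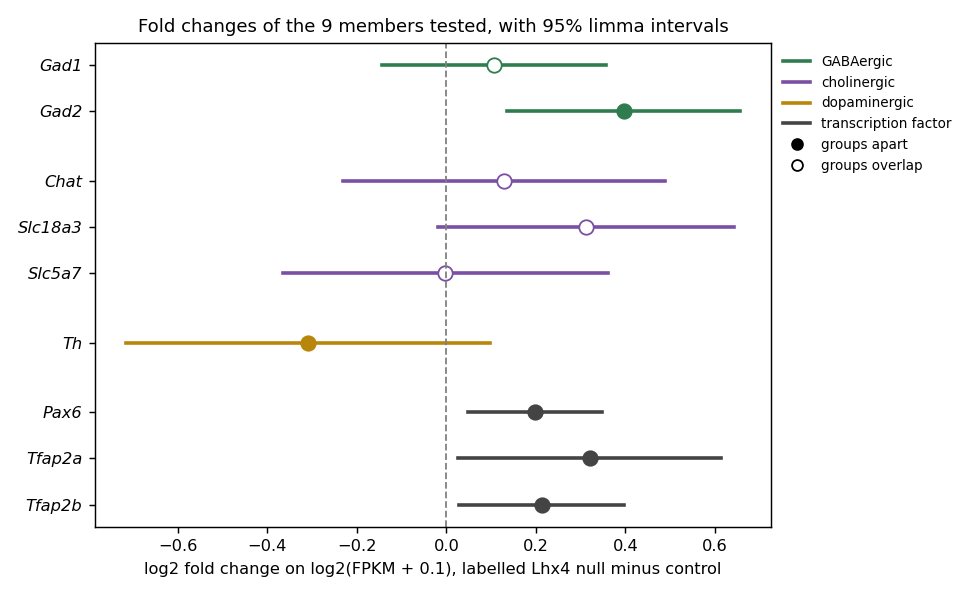
Log2 difference between the libraries labelled *Lhx4* null and the controls on log2(FPKM + 0.1) (x axis) for the 9 genes tested, with the 95% interval of limma as a bar, coloured by transmitter or role and filled where the groups did not overlap. The intervals of *Gad2*, *Pax6*, *Tfap2a* and *Tfap2b* lie above 0, and those of the other 5 genes cross 0. *Th* has the lowest estimate (-0.31), with an interval from -0.72 to 0.10.

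The cholinergic genes work in sequence: *Chat* encodes the enzyme that makes acetylcholine, *Slc18a3* the vesicular transporter VAChT that packs it, and *Slc5a7* the transporter that takes choline back up. In the annotation (GENCODE vM21, GRCm38) *Chat* lies at chr14:32408203-32465989 on the minus strand over 57.787 kb, and *Slc18a3* is a gene of 1 exon of 2413 bases on the same strand, at chr14:32462438-32464850. It sits inside a *Chat* intron, and its start is 1139 bases downstream of that of *Chat*. They share 0 exon bases, so fragments from spliced *Chat* do not fall into *Slc18a3*, but those from unspliced *Chat* would.

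**Figure D3:**
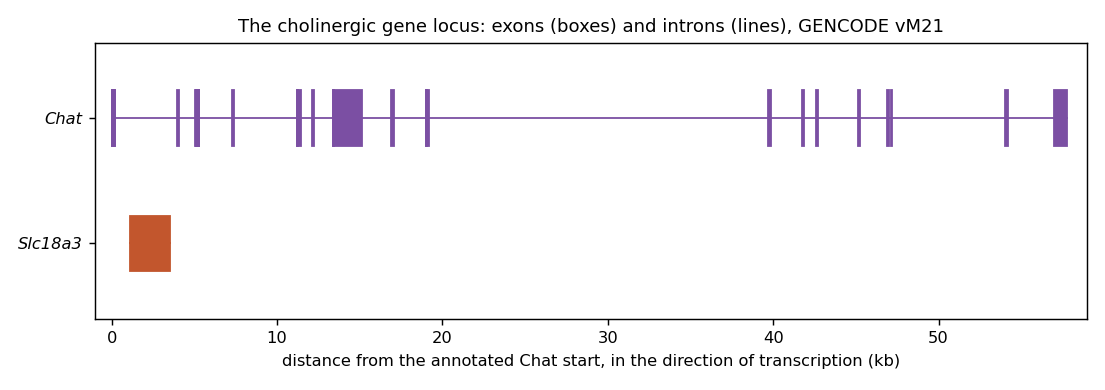
Exons (boxes) of *Chat* (purple) and *Slc18a3* (orange) by distance from the annotated start of *Chat* in the direction of transcription (x axis, kb), with the exons of all annotated transcripts merged. *Slc18a3*, of 1 exon, lies in the intron that follows the start of *Chat*, and the pair shares 0 exon bases.

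*Chat* was at 1.85, 2.37 and 2.01 FPKM in the controls and at 2.60, 1.94 and 2.31 FPKM in those labelled *Lhx4* null. The groups overlapped widely, with a log2 difference of 0.13 (95% interval -0.23 to 0.49; limma with Benjamini-Hochberg adjustment, adjusted p = 0.862). *Slc18a3* was at 2.75, 2.86 and 2.29 FPKM in the controls and at 3.69, 3.38 and 2.84 FPKM in the other group. Replicate 3 of the libraries labelled *Lhx4* null fell just below control replicate 2, and the other two libraries lay above all controls. The log2 difference was 0.31 (95% interval -0.02 to 0.64), with an adjusted p of 0.633 (limma with Benjamini-Hochberg adjustment), and without replicate 3 of the libraries labelled *Lhx4* null it was 0.41. *Slc18a3* stood at 1.14 to 1.49 times *Chat* in the controls and at 1.23 to 1.75 times in the other group, again with overlap.

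*Slc5a7* was at 1.40, 1.53 and 1.33 FPKM in the controls and at 1.45, 1.20 and 1.62 FPKM in those labelled *Lhx4* null. The lowest and the highest library both belonged to the latter group, and the 95% interval of the log2 difference ran from -0.37 to 0.36 around an estimate near 0, so a change of that size in either direction is not excluded by these libraries. The 5 genes of acetylcholine handling, which add *Ache* and *Slc10a4*, had 0 calls at an adjusted p under 0.05 (limma with Benjamini-Hochberg adjustment), 0 at an unadjusted p under 0.05, and a median of 0.06.

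Of 6 other genes of starburst amacrine cells, 1 was called, *Isl1*. At an unadjusted p under 0.05 (limma) 2 were higher, *Megf10* and *Sox2*, beside 4.6% of all genes, and 1 was lower, beside 3.55%. Positive differences were held by 3 of the 6 and negative ones by 3. *Sox2* differed by 0.41, with overlap between the groups. *Isl1*, a LIM-homeodomain factor that starburst cells share with bipolar and ganglion cells and that is also in the bipolar marker list, fell from 119.7, 131 and 106 FPKM in the controls to 76.2, 67.4 and 74.7 FPKM in those labelled *Lhx4* null, a log2 difference of -0.70 (limma with Benjamini-Hochberg adjustment, adjusted p = 0.0306). That call was lost under 8 of 14 alternatives, with adjusted p up to 0.269 (limma), among them a fit without a filter on low values, the replicate block (adjusted p = 0.120) and each of 5 fits that left out 1 library. *Megf10*, a receptor by which starburst cells space themselves, was at 6.33, 7.23 and 6.31 FPKM in the controls and at 8.79, 8.62 and 8.09 FPKM in the other group, a difference of 0.36 without overlap (limma, unadjusted p = 0.00476, adjusted p = 0.357). *Chrm2*, a muscarinic receptor, was lower without overlap, with a difference of -0.49 (limma, adjusted p = 0.630). The part of bipolar cells in the *Isl1* difference was not tested.

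*Th* encodes tyrosine hydroxylase, the step that limits dopamine synthesis, and its mean was the lowest of the 9 genes. It was at 0.742, 0.673 and 0.835 FPKM in the controls and at 0.615, 0.612 and 0.527 FPKM in those labelled *Lhx4* null. Every library of the latter group was below every control, by a narrow margin between control replicate 2 and replicate 1 of the other group. The means were 0.750 ± 0.0814 and 0.585 ± 0.0497 FPKM (SD, n = 3), a ratio of 0.780, and the log2 difference of -0.31 had a 95% interval from -0.72 to 0.10 and an adjusted p of 0.689 (limma with Benjamini-Hochberg adjustment). The added 0.1 FPKM narrows a difference at this level, and with a pseudocount of 1 FPKM it was -0.14.

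The rest of the dopamine list, genes of synthesis, packaging and uptake and the transcription factor gene *Nr4a2*, showed no call. Of 6 genes 5 were tested, *Th* among them, with 0 calls at an adjusted p under 0.05 (limma with Benjamini-Hochberg adjustment). There were 0 at an unadjusted p under 0.05 (limma), and the median was 0.07. Positive values were held by 4 of the 5, *Nr4a2* (0.22) among them, beside 53.3% of all genes tested. *Slc18a2*, the vesicular monoamine transporter, was at 2.77, 2.78 and 2.54 FPKM in the controls and at 3.06, 3.03 and 3.05 FPKM in those labelled *Lhx4* null, higher without overlap by 0.17 (limma, adjusted p = 0.707). The dopamine transporter gene *Slc6a3*, a defining marker of these cells, was at or near 0, from 0 to 0.0312 FPKM in the controls and from 0 to 0.0121 FPKM in the other group, and was not tested.

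The wider list of amacrine fate factors held 26 genes, of which 25 were tested, *Pax6*, *Tfap2a* and *Tfap2b* among them. At an adjusted p under 0.05 (limma with Benjamini-Hochberg adjustment) 0 were called. At an unadjusted p under 0.05 (limma) 4 were higher, beside 4.6% of all genes, and 2 were lower, beside 3.55%. The 4 were the members *Pax6*, *Tfap2a* and *Tfap2b* with *Ebf3* as the only addition, and the 2 were *Lmo4* and *Bhlhe22*. *Bhlhe22* (-0.23) encodes BHLHB5, which the study also describes in type 2 bipolar cells. The part of bipolar cells in its difference was not tested. Positive values were held by 21 genes and negative values by 4, beside 53.3% positive among all genes tested, and the median was 0.19. *Ebf3*, a factor of glycinergic amacrine subtypes, was at 14.3, 14.4 and 12.6 FPKM in the controls and at 17.3, 19.1 and 15.4 FPKM in those labelled *Lhx4* null, a difference of 0.32 (limma, unadjusted p = 0.0117). *Lmo4*, a LIM-only cofactor of amacrine subtypes, went the other way, from 30.6, 33.9 and 28.9 FPKM to 25.3, 25.4 and 25.2 FPKM, a difference of -0.29 (limma, unadjusted p = 0.00454). Neither of these genes had overlap between the groups, and neither passed the adjusted threshold.

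Among 11 amacrine peptide and subtype genes 0 were called at an adjusted p under 0.05 (limma with Benjamini-Hochberg adjustment), and the median was -0.06. At an unadjusted p under 0.05 (limma) 3 were higher, beside 4.6% of all genes, and 0 were lower, beside 3.55%. *Sst*, the somatostatin precursor of a sparse amacrine type, was at 4.93, 4.18 and 4.24 FPKM in the controls and at 5.29, 7.17 and 7.99 FPKM in those labelled *Lhx4* null, a difference of 0.59 (limma, unadjusted p = 0.00560). *Npy*, the neuropeptide Y precursor, differed by 0.36 and the transcription factor gene *Maf* by 0.22, both higher without overlap. The 6 genes of AII amacrine cells, the glycinergic relay of the rod pathway, had 0 calls and a median of 0.06. At an unadjusted p under 0.05 (limma) 1 was lower, beside 3.55% of all genes. *Gjd2*, the connexin gene of AII gap junctions, accounted for that 1 (-0.22), with overlap between the groups, and it is not specific to amacrine cells.

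**Figure D4:**
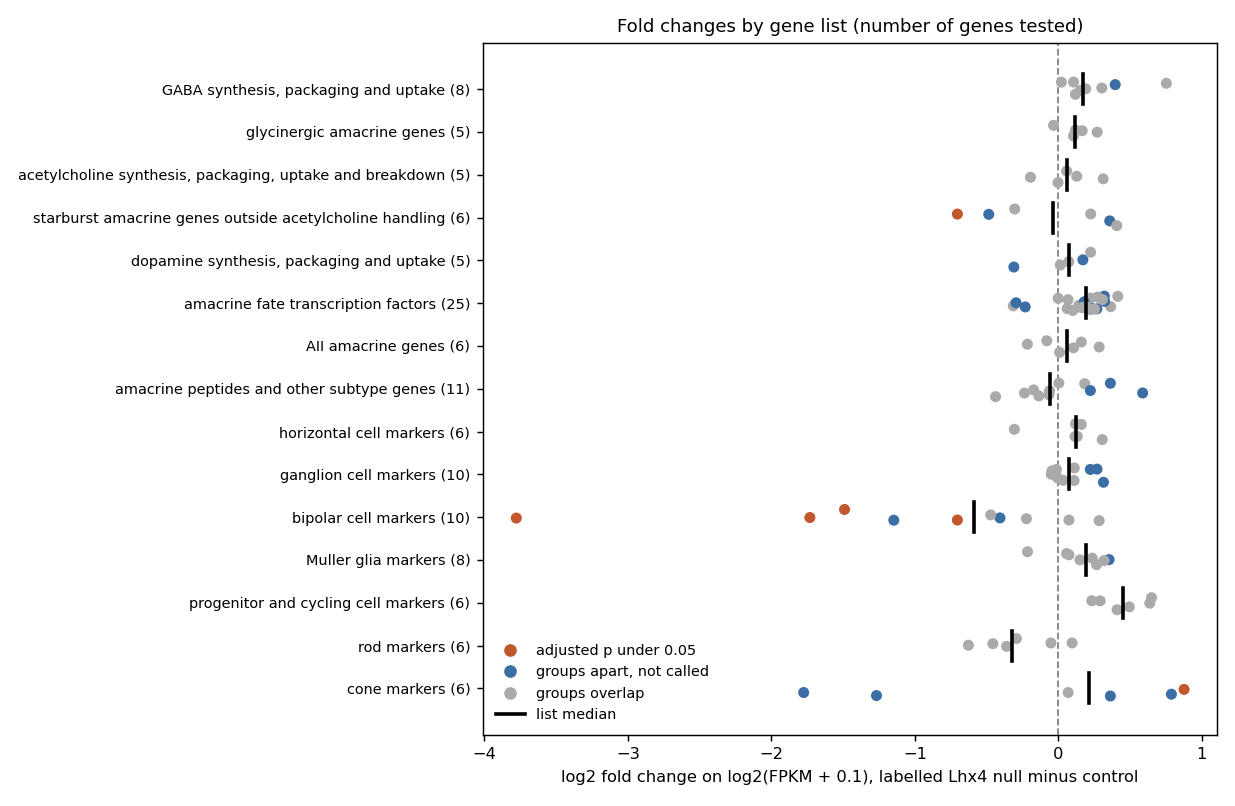
Log2 difference between the libraries labelled *Lhx4* null and the controls (x axis) for each tested gene of the amacrine lists and of markers of other retinal cells (y axis, number of genes tested in brackets), with orange for an adjusted p under 0.05, blue for groups that do not overlap, grey for the rest and a black bar for the list median. The medians of the amacrine lists lie between -0.06 and 0.19, against -0.59 for bipolar markers and 0.45 for progenitor and cycling cell markers.

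Taking all amacrine lists without the 10 genes, 58 of 60 genes were tested, 1 was called lower and 0 higher (limma with Benjamini-Hochberg adjustment), and the median difference was 0.15 beside 0.20 for the 9 genes. At an unadjusted p under 0.05 (limma), 6 of the 58 (10.3%) were higher, beside 4.6% of all genes, and 4 (6.9%) were lower, beside 3.55%. The groups did not overlap for 9 of the 58 with higher values (15.5%, beside 8.1% of all genes) and for 4 with lower values (6.9%, near the 6.13% of all genes).

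Markers of the other cell types of the retina were read in the same way. The summed FPKM of 10 bipolar markers was 798 to 904 in the controls and 624 to 707 in the libraries labelled *Lhx4* null, with 4 called lower. Of the types that share genes with amacrine cells, 6 horizontal cell markers summed to 47.5 to 60.2 FPKM in the controls and 54.7 to 65.1 FPKM in the other group (0 called, median 0.13). Most of that sum was *Prox1*, which is also in the AII amacrine list. It was at 34.8 to 46.1 FPKM in the controls and at 40.2 to 50.2 FPKM in the other group. The 10 ganglion cell markers summed to 326 to 366 and 331 to 357 FPKM (0 called, median 0.07). Of these 10, 3 were higher without overlap, *Pou4f1* (0.27), *Isl2* (0.31) and *Pou4f2* (0.22), beside 8.1% of all genes. At an unadjusted p under 0.05 (limma) 2 of the 10 were higher, *Pou4f1* and *Isl2*, beside 4.6%, and 0 were lower, beside 3.55%. The 8 Müller glia markers summed to 546 to 618 FPKM in the controls and 652 to 701 FPKM in the other group (0 called, median 0.19). The last of these sums did not overlap between the groups, but *Apoe* was the only 1 of the 8 Müller glia markers whose groups stood apart, and without it the sums were 271 to 317 FPKM in the controls and 296 to 340 FPKM in the other group, with overlap. The part of these cells, and of a smaller bipolar share of the RNA, in the levels of *Pax6*, *Tfap2a*, *Tfap2b* and *Gad2* was not tested.

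Tissue other than neural retina was low but present. The 7 pigment cell markers summed to 10.1 to 19.2 FPKM in the controls and 20.0 to 36.0 FPKM in those labelled *Lhx4* null, although pigment epithelium was removed at dissection, and the 6 microglia markers to 25.8 to 29.6 and 29.1 to 40.2 FPKM. *Col1a2* of connective tissue was called higher (limma with Benjamini-Hochberg adjustment, adjusted p = 0.0489), a call lost under 12 of 14 alternatives, but the median of the 4 tested genes of its list of 7 was -0.04, and *Col3a1* was lower without overlap (-0.29). *Lum* was at or near 0, and *Dcn*, too low to be tested, was at 0.0169 to 0.0323 FPKM in the controls and at 0.113 to 0.139 FPKM in the other group. Lens crystallin genes were highest in control replicate 2 and in replicate 2 of the other group. The 6 rod markers summed to 2200 to 2583 FPKM in the controls and 1931 to 2434 FPKM in the other group, and *Opn1sw* among 6 cone markers was called higher (limma with Benjamini-Hochberg adjustment, adjusted p = 0.0306), a call lost under 8 of 14 alternatives. In the same list *Arr3* (-1.27; limma with Benjamini-Hochberg adjustment, adjusted p = 0.0769) and *Opn1mw* (-1.77, adjusted p = 0.0968) were lower without overlap and were not called. *Pde6h* (0.79; limma with Benjamini-Hochberg adjustment, adjusted p = 0.0756) and *Gnat2* (0.36, adjusted p = 0.391) were higher without overlap and were not called. The 6 cone markers summed to 182.2 to 204.6 FPKM in the controls and 236.1 to 316.5 FPKM in the other group, with a median difference of 0.22. *Chat* was highest in control replicate 2 and in replicate 1 of the libraries labelled *Lhx4* null, as was the rod gene *Gnat1*, and the part of tissue composition in this order was not tested.

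As a description over the 6 libraries, the genes most like a member were sought among those with a mean of at least 1 FPKM by the Pearson correlation of log2(FPKM + 0.1). *Hlcs* (r = 0.9932) and *Plekhj1* (0.9869) were nearest to *Gad2*, *Ctsb* (0.9931) and *Cacna2d3* (0.9876) to *Chat*, *Fam136a* (0.9936) and *Rpp38* (0.9887) to *Th*, and *Rasl11b* (0.9851) and *Prmt5* (0.981) to *Ptf1a*. With only 6 libraries, which share depth and label, 73 to 135 of about 12485 genes reached r above 0.9 with each of these, so the names carry little weight.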

How the data were processed

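TruSeq RNA libraries (paired-end) of 3 control and 3 *Lhx4* null retinas were used, grouped by the sample labels, and 0 per-sample columns were left out. The authors mapped the reads and deposited FPKM per gene. Their processing notes name TopHat2, Cufflinks and GRCm38, and versions, annotation and strand setting are not given in the sources used here. Genes averaging 0.1 FPKM or more were fitted on log2(FPKM + 0.1) in limma 3.58.1 (R 4.3.3), with a mean-variance trend and no block or covariate, and p-values (two-sided) were adjusted by Benjamini-Hochberg over 15200 genes. The fit was tested on simulated data. No count model was used, since FPKM are not counts. Each of 6 repeated symbols was read from its most highly expressed gene. The deposited table carries no counts, and relative depth came from the steps of 5708 genes under 0.1 FPKM. Positions are from GENCODE vM21. Figures used Python 3.11.15 and matplotlib 3.10.9. The genes and lists were chosen with earlier results of these data known. Genes named were the 10 members, genes past the threshold, up to 3 genes per list with the smallest p and no overlap between groups, and the nearest genes by correlation. *Slc32a1*, *Abat*, *Dlx1*, *Dlx2*, *Foxn4*, *Bhlhe22*, *Nr4a2*, *Gjd2*, *Prox1*, *Slc6a3*, *Gnat1*, *Apoe*, *Arr3*, *Opn1mw*, *Col3a1* and *Dcn* were added with their values known. The same held for *Vsx1*, *Otx2*, *Pde6h*, *Gnat2*, *Pou4f1*, *Pou4f2*, *Isl2* and *Sox2*. Alternatives, 14 in all, varied the pseudocount, the filter, the scaling, the trend, the replicate block and the libraries used.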

Additional observations from a re-analysis of the deposited data

How the results depend on the processing

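Under 14 alternatives 0 of the 10 genes were called at an adjusted p under 0.05 (limma with Benjamini-Hochberg adjustment), and the lowest adjusted p was 0.240, for *Tfap2a* without replicate 1 of the libraries labelled *Lhx4* null. *Slc5a7* alone changed sign, to 4e-04 with a pseudocount of 1 FPKM, and leaving out 1 library at a time gave it -0.10 to 0.11. Leaving out 1 library gave 0.00 to 0.22 for *Gad1*, 0.30 to 0.48 for *Gad2*, 0.03 to 0.24 for *Chat*, 0.22 to 0.41 for *Slc18a3*, -0.38 to -0.24 for *Th*, 0.17 to 0.42 for *Tfap2a*, 0.16 to 0.27 for *Tfap2b* and 0.18 to 0.21 for *Pax6*. The number of the 9 genes higher at an unadjusted p under 0.05 (limma) was 1 to 5 when 1 library was left out, beside 2.53% to 7.01% of all genes. Without the trend it was 2, beside 4.45% of all genes, and 1 gene, *Th*, was lower, beside 3.7%. Without a filter on low values it was 3, beside 3.64%, and with the replicate block it was 5, beside 4%. Over all genes, 21 were called lower and 13 higher, against 0 and 0 without a filter on low values, 14 lower without the trend, and 13 to 19 lower and 2 to 12 higher when 1 library was left out. The cause was not tested. Replicate numbers did not pair the samples (correlations of deviations -0.127, 0 and 0.162), and with the replicate block 11 genes were called lower and 4 higher, 0 of them among the 10. Depth limits *Ptf1a*, which rests on at most 6 fragments per library. It entered 2 alternatives only (0.25 without the filter, 0.71 without replicate 1 of the libraries labelled *Lhx4* null), and p-values measure only the spread between these 6 mice.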
